A study of Mus musculus with 14 samples.

Results

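The comparison set all valves from mice infused with angiotensin II (AngII) against all valves from mice that were not, across every gene measured. Its members were the 8 libraries labelled AngII or AngII+LY, 4 of each, and the 6 libraries labelled Ctrl or LY, 4 Ctrl and 2 LY, which together are all 14 libraries of the series. Of the 56941 genes in the table, the 19145 with a mean count of at least 10 were tested. The fit held the serotonin receptor antagonist LY272015 as a covariate. The value of each gene is therefore a pooled AngII effect, averaged over valves with and without the antagonist. It need not be the effect in either of these strata.

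The samples were aortic valve leaflets of male wild-type C57BL/6J mice, and every group ate the Breslow Western Diet. The age is given as 8 weeks, which in the study's methods describes mice that were then infused for 28 days. The labels give Ctrl mice as untreated, whereas the study's text calls control mice saline-treated in 1 place, so that whether they received vehicle is not settled by the sources. LY mice received LY272015 at 3 mg/kg by intraperitoneal injection, on a schedule that the sources state differently. AngII mice received AngII at 1000 ng/kg/min for 28 days from osmotic pumps placed under the skin, and AngII+LY mice received both agents. The design text has pumps removed from all AngII and AngII+LY mice 48 hours before collection, whereas the study's methods describe removal in a subset. No pump or sham surgery is described for Ctrl or LY mice, so the infusion, the pump and its removal cannot be told apart. Each library is taken as 1 mouse, and no label gives a batch.

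AngII is the effector peptide of the renin-angiotensin system. It acts mainly through the AT1 receptor, a Gq-coupled receptor whose signalling raises intracellular calcium, activates protein kinase C and, through shed HB-EGF, transactivates the EGF receptor. In valves and vessels it is known for promoting matrix remodelling, inflammation and activation of interstitial cells. A valve leaflet consists of interstitial cells in a matrix of collagen, elastin and proteoglycan under an endothelial layer, with resident macrophages, and its base joins cardiac muscle and fat of the aortic root.

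Infused valves held more transcript of the sterol synthesis enzymes Msmo1 and Cyp51, of the activin subunit gene Inhba, the growth factor gene Hbegf, the collagen gene Col8a1 and the endothelial transcription factor gene Sox17. They held less transcript of the adipocyte genes Ucp1, Cidec, Adig and Irs3, and of Inmt, Cib2, Cebpd, Sgk1 and the chemokine gene Ccl8. A gene was called at an adjusted p under 0.05 in edgeR's quasi-likelihood test with an absolute log2 fold change above 0.5. By this rule 51 genes were called, 24 higher (0.125% of those tested) and 27 lower (0.141%). At an unadjusted p under 0.05, 2143 genes (11.2%) were higher and 1890 (9.87%) lower. In 90 genes (0.47%) every infused valve lay above every non-infused one, and in 117 genes (0.611%) every infused valve lay below. The number of calls depended strongly on the test and on single libraries. The legacy form of the same test called 5 genes (Ucp1, Cib2, Inmt, Lars2 and Gm15564), whereas DESeq2 called 1177, and without LY 1 edgeR called 0, with 3885 genes at an unadjusted p under 0.05. Without AngII 3, AngII 4 and AngII+LY 1, whose mitochondrial shares are given below, 1 gene was called, Ucp1. All 51 genes kept their direction in each of these fits in which they were tested.

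**Figure D1:**
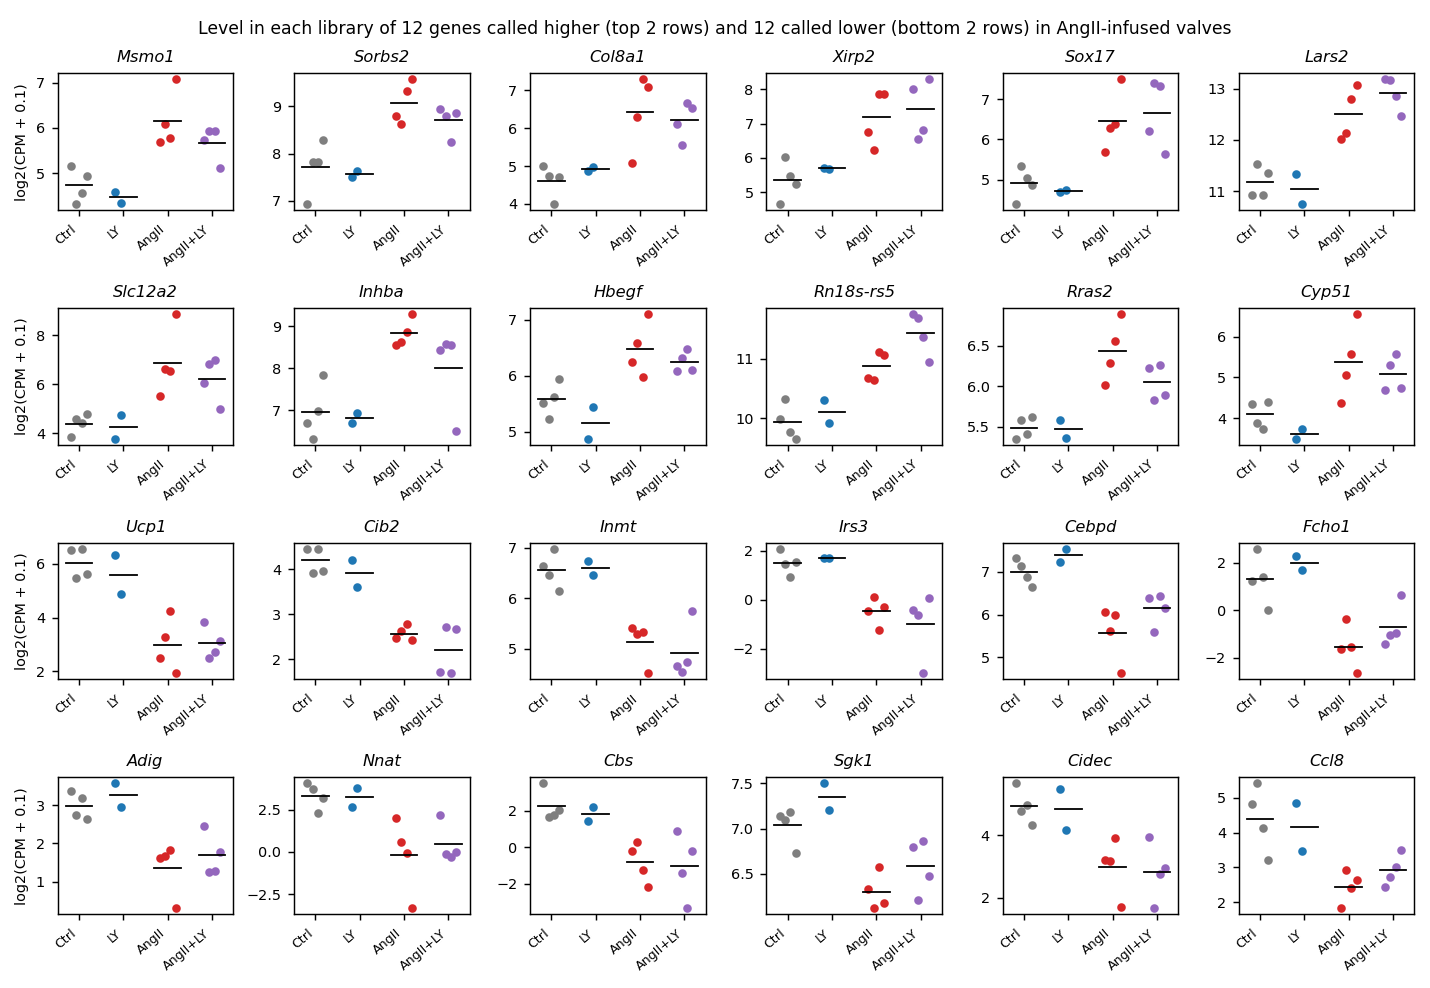
Level of 24 called genes in each of the 14 libraries, as log2(CPM + 0.1) with the group mean as a line, by group on the horizontal axis. The 12 genes in the upper rows were higher and the 12 in the lower rows lower in AngII and AngII+LY valves. In Lars2 the infused valves began at 4142 CPM and the non-infused ended at 2945, and in Ucp1 the infused ended at 18.8 and the non-infused began at 29.4.

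The sterol synthesis enzymes are shown first by their promoters, because 2 of them, Msmo1 and Cyp51, were called. Hmgcs1 and Idi1, the members of the list with the next smallest p, were not called and are shown beside them. These genes are controlled together by SREBP2, a transcription factor that is released from the endoplasmic reticulum when membrane sterol is low and binds sterol regulatory elements, often beside CCAAT boxes bound by NF-Y. The windows below are the 250 bases before the start site annotated by RefSeq on GRCm38.p6, a different build from the GRCm39 of the counts, written 5′ to 3′ on the strand of the gene. They lie at chr8:64733579-64733828, minus strand for Msmo1, chr5:4104698-4104947, minus strand for Cyp51, chr13:119690101-119690350, plus strand for Hmgcs1 and chr13:8885356-8885605, plus strand for Idi1. Capitals mark matches to CCAAT and to the sterol regulatory element TCACNCCAC on either strand, so that a match on the other strand reads ATTGG.
Msmo1: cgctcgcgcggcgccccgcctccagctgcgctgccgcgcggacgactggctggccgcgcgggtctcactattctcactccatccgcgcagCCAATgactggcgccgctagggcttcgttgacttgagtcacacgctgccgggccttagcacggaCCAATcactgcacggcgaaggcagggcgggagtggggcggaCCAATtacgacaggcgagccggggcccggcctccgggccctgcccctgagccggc
Cyp51: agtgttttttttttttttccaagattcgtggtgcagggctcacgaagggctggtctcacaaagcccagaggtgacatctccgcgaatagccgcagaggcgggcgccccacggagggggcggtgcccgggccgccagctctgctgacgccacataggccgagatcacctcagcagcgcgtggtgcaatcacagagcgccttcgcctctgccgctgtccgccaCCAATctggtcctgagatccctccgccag
Hmgcs1: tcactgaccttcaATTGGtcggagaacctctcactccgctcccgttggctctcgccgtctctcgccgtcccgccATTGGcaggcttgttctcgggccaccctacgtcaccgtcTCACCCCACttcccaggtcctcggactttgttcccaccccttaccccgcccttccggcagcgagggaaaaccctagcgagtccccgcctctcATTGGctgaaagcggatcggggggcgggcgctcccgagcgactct
Idi1: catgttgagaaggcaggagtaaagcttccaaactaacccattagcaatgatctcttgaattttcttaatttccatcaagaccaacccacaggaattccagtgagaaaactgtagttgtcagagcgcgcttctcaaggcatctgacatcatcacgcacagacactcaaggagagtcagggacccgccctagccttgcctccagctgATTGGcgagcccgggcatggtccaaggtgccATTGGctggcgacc
The sterol element was found only in the Hmgcs1 window among these 4, as TCACCCCAC, and in 1.05% of all 32851 RefSeq windows of this length. CCAAT was found in all 4, with 3 matches in Msmo1, 1 in Cyp51, 3 in Hmgcs1 and 2 in Idi1, and in 33.8% of all windows. Of the 18 sterol list genes with a window, 16 held CCAAT and 1 held the sterol element. A match is a run of letters and not a measured binding site.

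Msmo1, which removes the C4 methyl groups of sterol intermediates, lies on chromosome 8, 65170603 to 65186830 (GRCm39). Its level, in counts per 1000000 after TMM scaling (CPM), was 34.6 at the lowest, 57.7 at the median and 134 at the highest in infused valves. In non-infused valves it was 19.9, 23.7 and 35.6. The ranges overlapped by 1 library on each side, AngII+LY 4 and Ctrl 1, and AngII 4 was the highest of all. The log2 fold change was 1.39 ± 0.23 (SE, n = 8 and 6, edgeR adjusted p = 0.0303), with 1.48 between AngII and Ctrl and 1.25 between AngII+LY and LY.

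Cyp51, the sterol 14-demethylase, rose by 1.49 ± 0.29 on the log2 scale (edgeR adjusted p = 0.045). Its level was 20.6, 36.4 and 93.7 CPM at the lowest, median and highest infused valve and 11.2, 13.8 and 21.1 CPM in non-infused valves. Hmgcs1, which makes HMG-CoA, stood at 41, 66.8 and 153 CPM against 27.9, 31.5 and 47.3. The log2 fold change of 1.16 ± 0.24 missed the threshold (edgeR adjusted p = 0.0565). Idi1, which isomerises isopentenyl diphosphate, did not overlap, with 4.68 CPM in the lowest infused valve and 4.55 in the highest non-infused one. Its log2 fold change of 1.67 ± 0.36 also missed the threshold (edgeR adjusted p = 0.0628). AngII 4 held the highest level of all 4 of these genes. In the list of 26 sterol synthesis and uptake genes, 2 were called higher and none lower, and 12 were higher and 2 lower at an unadjusted p under 0.05. The list's median log2 fold change was 0.40, beside -0.01 over all genes tested.

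Hbegf, the growth factor that links the AT1 receptor to the EGF receptor, stood at 63.0, 77.5 and 137 CPM in infused valves and at 29.3, 44.4 and 61.6 in the others. Every infused valve lay above every non-infused one, and Ctrl 4 at 61.6 and AngII 3 at 63.0 were the nearest pair. The log2 fold change was 0.99 ± 0.19 (edgeR adjusted p = 0.0385). Inhba encodes the subunit of activin A, a ligand of the TGF-beta family. Its level was 90.6, 378 and 627 CPM in infused and 79.9, 114 and 227 CPM in non-infused valves, and AngII+LY 4, at 90.6, was the single infused valve inside the non-infused range. Its log2 fold change was 1.64 ± 0.31 (edgeR adjusted p = 0.0383). Sgk1, a kinase induced by corticosteroids and by osmotic stress, fell by 0.74 ± 0.14 on the log2 scale (edgeR adjusted p = 0.0383), from a median of 143 to 84.5 CPM. AngII+LY 1 and AngII+LY 3, at 111 and 116 CPM, lay above Ctrl 4, at 106.

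Of 22 listed early targets of AngII and vasoactive genes, none was called, 7 were higher and 4 lower at an unadjusted p under 0.05, and the median log2 fold change was 0.16. In the renin-angiotensin list of 19 genes, 16 were tested and none was called, while 3 were higher and 2 lower at an unadjusted p under 0.05. Agtr1a, the main AT1 receptor gene, stood at 6.58, 8.07 and 14 CPM in infused valves and 3.54, 5.99 and 7.2 in the others (log2 fold change 0.61 ± 0.24, edgeR adjusted p = 0.161). Lnpep, the receptor for angiotensin IV, had a fitted difference of 0.91 ± 0.23 on the log2 scale (edgeR adjusted p = 0.0717), and Ace, the converting enzyme, one of -0.69 ± 0.27 (edgeR adjusted p = 0.165). Ren1, which encodes renin, was at 0 in 4 of 6 non-infused and 3 of 8 infused valves and reached 43 CPM in AngII+LY 4 (edgeR adjusted p = 0.11). Rcan1, a calcineurin target that calcium signalling induces, had a fitted difference of 0.20 ± 0.14 on the log2 scale (edgeR adjusted p = 0.442). Of the serotonin genes, Htr2b, the target of LY272015, lay between 0 and 1.77 CPM in infused and 0.127 and 2.55 CPM in non-infused valves. The fitted difference was -0.23 ± 0.64 (edgeR adjusted p = 0.862). Slc6a4, the serotonin transporter, reached 53 CPM in AngII 4 and lay between 1.21 and 16.5 CPM in every other library (edgeR adjusted p = 0.416).

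The matrix genes did not move as 1 group. Col8a1, a short-chain collagen of subendothelial and valve matrix, stood at 34, 85.5 and 156 CPM in infused valves and 15.9, 27.9 and 32 in the others. The ranges did not overlap, and the log2 fold change was 1.74 ± 0.31 (edgeR adjusted p = 0.0303). Of 39 collagen genes tested, Col8a1 was the one called. At an unadjusted p under 0.05, 6 collagen genes were higher and 7 lower, and the median log2 fold change of -0.18 lay near that of all genes. Col11a2 and Col23a1 had log2 fold changes of -1.24 ± 0.31 and -0.98 ± 0.28, and Col15a1, a basement membrane collagen, one of 1.01 ± 0.29, none of them called (edgeR adjusted p = 0.0717, 0.0889 and 0.0889). Col1a1, the main fibrillar collagen chain, had a fitted difference of -0.51 ± 0.23 on the log2 scale (edgeR adjusted p = 0.223). Postn, the activated-fibroblast matrix gene periostin, had one of -0.22 ± 0.36 (edgeR adjusted p = 0.747). For Postn the strata differed in sign, 0.40 without and -1.07 with the antagonist, and the interaction was not called (edgeR adjusted p = 0.305).

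Among the other genes called higher, Sox17, an endothelial transcription factor, stood at 49.8, 80 and 179 CPM in infused valves and 21, 28 and 40.3 in the others. It did not overlap, with a fitted difference of 1.83 ± 0.32 on the log2 scale (edgeR adjusted p = 0.0303). The 19 endothelial markers as a list had a median log2 fold change of 0.07, with 2 higher and 2 lower at an unadjusted p under 0.05. Slc12a2, the sodium-potassium-chloride cotransporter, rested in part on 1 library. It ranged from 31.4 to 469 CPM in infused and from 13.6 to 27.1 CPM in non-infused valves, with AngII 4 at 469 and the other 3 AngII valves between 45.3 and 100. Its log2 fold change of 2.64 ± 0.49 (edgeR adjusted p = 0.0374) was 1.97 without AngII 4. Rras2, a small GTPase of the R-Ras group, did not overlap, at 56.7 to 119 CPM against 40.7 to 49.1 (log2 fold change 0.82 ± 0.16, edgeR adjusted p = 0.0414).

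Xirp2 and Sorbs2 encode proteins of the actin and Z-disc apparatus of muscle. Xirp2 stood at 75.1, 173 and 313 CPM in infused valves and 25.1, 47.7 and 65 in the others, without overlap (log2 fold change 1.92 ± 0.34, edgeR adjusted p = 0.0303). Sorbs2 stood at 303, 454 and 760 CPM against 123, 213 and 314 (log2 fold change 1.26 ± 0.22, edgeR adjusted p = 0.0303). The antisense gene Sorbs2os, which lies within Sorbs2 on the other strand, was also called higher, and since the strand setting of the counting is not given in the sources used here, reads of the pair cannot be told apart. Cardiomyocyte markers were set beside them. Their summed share of counts was 1.23% to 6.67% in infused and 1.27% to 5.09% in non-infused valves (difference 0.165 percentage points, exact permutation p = 0.84, n = 8 and 6). This pooled value joins strata that differed. The share was 1.23% to 2.39% in AngII and 1.27% to 5.09% in Ctrl valves. With the antagonist it was 2.85% to 6.67% in AngII+LY valves and 2.26% and 2.82% in LY valves. Myh6, the atrial and adult mouse heart myosin heavy chain, had a fitted difference of -0.42 ± 0.61 on the log2 scale (edgeR adjusted p = 0.714). For Myh6 the strata differed in sign, -1.14 without and 0.88 with the antagonist. None of the 23 cardiomyocyte markers was called, 16 had a positive log2 fold change, and 4 were higher and none lower at an unadjusted p under 0.05. The 4 higher ones were Pln (log2 fold change 0.93), Nppb (1.65), Ttn (1.14) and Ryr2 (0.88). Their edgeR adjusted p-values were 0.126, 0.14, 0.148 and 0.202. Their median log2 fold change was 0.35, with -0.22 in the stratum without and 1.09 in the stratum with the antagonist.

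The adipocyte list had the lowest median log2 fold change of the lists described here. Ucp1, the uncoupling protein of brown adipocytes, lies on chromosome 8, 84016647 to 84025085 (GRCm39). It stood at 3.73, 7.59 and 18.8 CPM in infused valves and at 29.4, 64.9 and 94.5 CPM in non-infused valves. No library overlapped, and each infused valve was below the lowest non-infused one, LY 2. Ucp1 fell by 2.77 ± 0.35 on the log2 scale (n = 8 and 6, edgeR adjusted p = 0.00619), by 2.84 between AngII and Ctrl and by 2.65 between AngII+LY and LY. Cidec, a lipid droplet protein of fat cells, stood at 3.09, 8.32 and 15.4 CPM against 17.9, 29 and 50.4, also without overlap (log2 fold change -1.84 ± 0.35, edgeR adjusted p = 0.0385). Adig, which encodes adipogenin, fell by 1.52 ± 0.27 (edgeR adjusted p = 0.0303) and Irs3, an insulin receptor substrate of rodent fat, fell by 2.22 ± 0.36 on the log2 scale (edgeR adjusted p = 0.0227). Neither overlapped.

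Of the 19 adipocyte markers, 2 were called lower and none higher, and 12 were lower and 1 higher at an unadjusted p under 0.05. The median log2 fold change of the list was -1.07, with -1.22 in the stratum without and -0.36 in the stratum with the antagonist. Plin1, which coats lipid droplets, stood at 2.12 CPM at the median of infused and 7.39 of non-infused valves (log2 fold change -1.92 ± 0.47, edgeR adjusted p = 0.0717). Otop1 (-2.22 ± 0.61) and Elovl3 (-2.36 ± 0.67), genes of brown fat, were not called either (edgeR adjusted p = 0.0808 and 0.081). The summed share of counts on the list was 0.0898% to 0.223% in infused and 0.143% to 0.252% in non-infused valves, a difference of -0.0495 percentage points (exact permutation p = 0.0581, n = 8 and 6). Without the antagonist the share was 0.0898% to 0.1675% in AngII and 0.1584% to 0.252% in Ctrl valves. With it, AngII+LY valves, at 0.133% to 0.223%, spanned both LY valves, at 0.143% and 0.203%. In whole-valve RNA, fewer cells of a type and less RNA per cell cannot be told apart, and the part of attached fat in these values was not tested. With the mean adipocyte marker level as a covariate, which itself includes Ucp1 and Cidec, the log2 fold change of Ucp1 was -1.66 and that of Cidec -0.66, and none of the 51 genes was called.

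**Figure D2:**
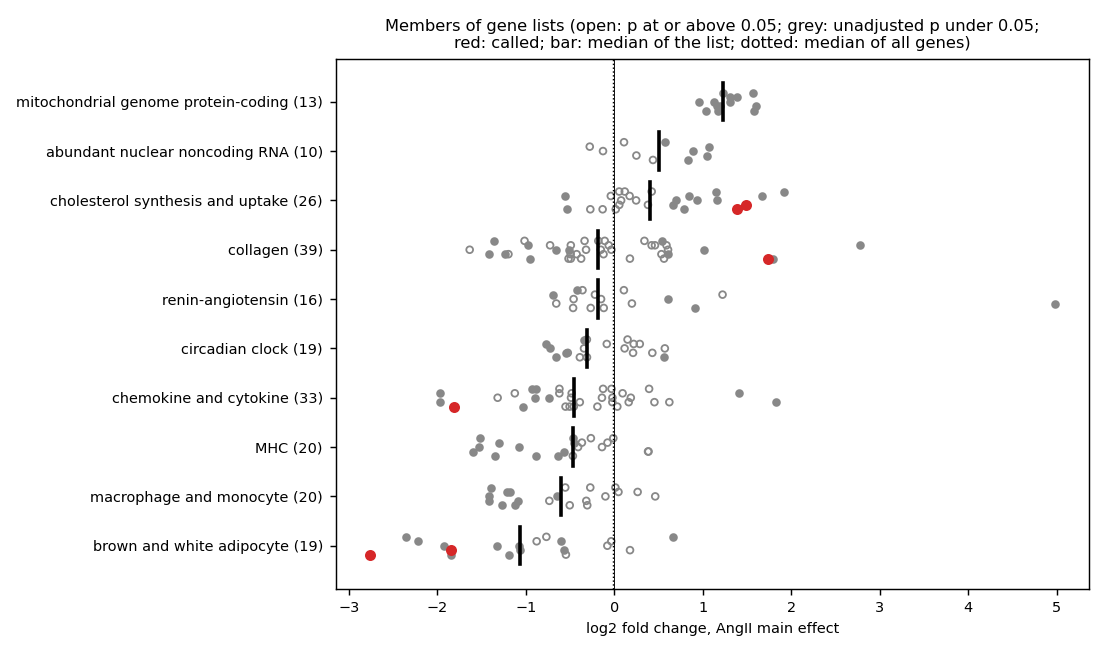
Log2 fold change of the AngII main effect for each tested member of 10 gene lists, with the number of members in brackets and the median of each list as a bar. The adipocyte list has the lowest median, -1.07, and the 13 mitochondrial protein-coding genes the highest, 1.22, while no mitochondrial gene was called.

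Other called genes were lower too. Inmt, an indolethylamine N-methyltransferase, stood at 22.7, 32.8 and 53.7 CPM in infused valves and 70.5, 93.9 and 127 in the others, without overlap. It fell by 1.48 ± 0.21 on the log2 scale (edgeR adjusted p = 0.0116). Cib2, a calcium- and integrin-binding protein, stood at 3.14, 5.75 and 6.76 CPM against 12.1, 16.9 and 21.9, without overlap. It fell by 1.65 ± 0.21 on the log2 scale (edgeR adjusted p = 0.00619), by 1.64 and 1.66 in the strata without and with the antagonist.

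Cebpd, a C/EBP transcription factor of adipogenesis and of the acute phase response, stood at 24.6, 64.7 and 86.6 CPM against 99.4, 145 and 186, without overlap (log2 fold change -1.29 ± 0.21, edgeR adjusted p = 0.023). Cbs, which makes cystathionine from homocysteine, and Nnat, the imprinted gene neuronatin, were each at 0 in 1 infused valve. Cbs reached 1.72 CPM in infused valves and at least 2.56 in the others (edgeR adjusted p = 0.0374), and Nnat reached 4.51 against at least 4.98 (edgeR adjusted p = 0.0374). Fcho1, a protein of clathrin-coated pit assembly, overlapped in AngII+LY 4 alone, at 1.48 CPM against a lowest non-infused value of 0.912 (log2 fold change -2.71 ± 0.48, edgeR adjusted p = 0.0303).

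Genes of the immune lists described here had mostly negative log2 fold changes, and 1 listed gene, Ccl8, was called. Outside these lists, Ear2 was also called lower (log2 fold change -2.56, edgeR adjusted p = 0.0374). Ccl8, a chemokine of tissue macrophages, stood at 3.47, 6.29 and 11.2 CPM in infused and 9.16, 22.7 and 42.8 CPM in non-infused valves, and AngII+LY 4 lay above Ctrl 4 and LY 2. The log2 fold change was -1.81 ± 0.35 (edgeR adjusted p = 0.0427). Of 33 chemokine and cytokine genes, Ccl8 was the 1 called, and 2 were higher and 8 lower at an unadjusted p under 0.05, with a median of -0.46. The 2 higher ones were Il11 (log2 fold change 1.83 ± 0.40), a fibrogenic cytokine, and Ccl2 (1.41 ± 0.40), the monocyte chemoattractant, neither called (edgeR adjusted p = 0.0628 and 0.0859). Csf1, the growth factor of macrophages, had a fitted difference of -0.90 ± 0.24 on the log2 scale (edgeR adjusted p = 0.0786).

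Of 20 macrophage and monocyte markers, 9 were lower and none higher at an unadjusted p under 0.05, none was called, and the median was -0.60. The C1q subunit genes C1qa, C1qb and C1qc, made chiefly by tissue macrophages, had log2 fold changes of -1.42 ± 0.33, -1.42 ± 0.32 and -1.27 ± 0.28 (edgeR adjusted p = 0.0668, 0.063 and 0.0628). C1qc stood at 34.8, 66 and 94.3 CPM against 62.6, 142 and 259, and Ctrl 4 was the 1 non-infused valve inside the infused range. In the antigen presentation list of 20 MHC genes, 11 were lower and none higher at an unadjusted p under 0.05, none was called, and the median was -0.47. Its class II members H2-DMb1, Cd74, H2-Ab1 and H2-DMa had log2 fold changes of -1.35, -1.60, -1.53 and -1.31 (edgeR adjusted p = 0.0729, 0.08, 0.0815 and 0.0826). Ctrl 1 held the highest level of each, for Cd74 1340 CPM where the other non-infused valves held 227 to 670. In the stratum without the antagonist the 4 values were -1.38, -2.08, -1.88 and -1.47. With the antagonist they were -1.29, -0.795, -0.95 and -1.06. The list's median was -0.79 without and -0.19 with the antagonist.

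Mitochondrial transcripts rose as a share of the library. They took 9.83% to 25.5% of counts in infused and 4% to 9.77% in non-infused valves, a difference of 9.12 percentage points after the strata were taken into account (exact permutation p = 0.00381, n = 8 and 6). The lowest infused and highest non-infused libraries were AngII 2 and LY 2, and AngII 3, AngII 4 and AngII+LY 1 exceeded 20%. By stratum the shares were 9.83% to 25.5% in AngII and 4% to 7.52% in Ctrl valves. With the antagonist they were 10.1% to 20.2% in AngII+LY valves and 8.62% and 9.77% in LY valves. All 13 protein-coding genes of the mitochondrial genome were higher at an unadjusted p under 0.05 and none was called, with a median log2 fold change of 1.22. The median was 1.70 in the stratum without and 0.71 in the stratum with the antagonist. mt-Nd5, a complex I subunit gene, did not overlap, at 4413 to 15060 CPM against 1496 to 3935 (log2 fold change 1.60 ± 0.37, edgeR adjusted p = 0.0674). For mt-Nd1 the log2 fold change was 1.31 ± 0.43 (edgeR adjusted p = 0.119), with 1.79 without and 0.64 with the antagonist. After a correction of each library for GC content the median of the 13 genes was 0.75. When the mitochondrial genes were left out before scaling, 45 genes were called, 44 of them among the 51.

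**Figure D3:**
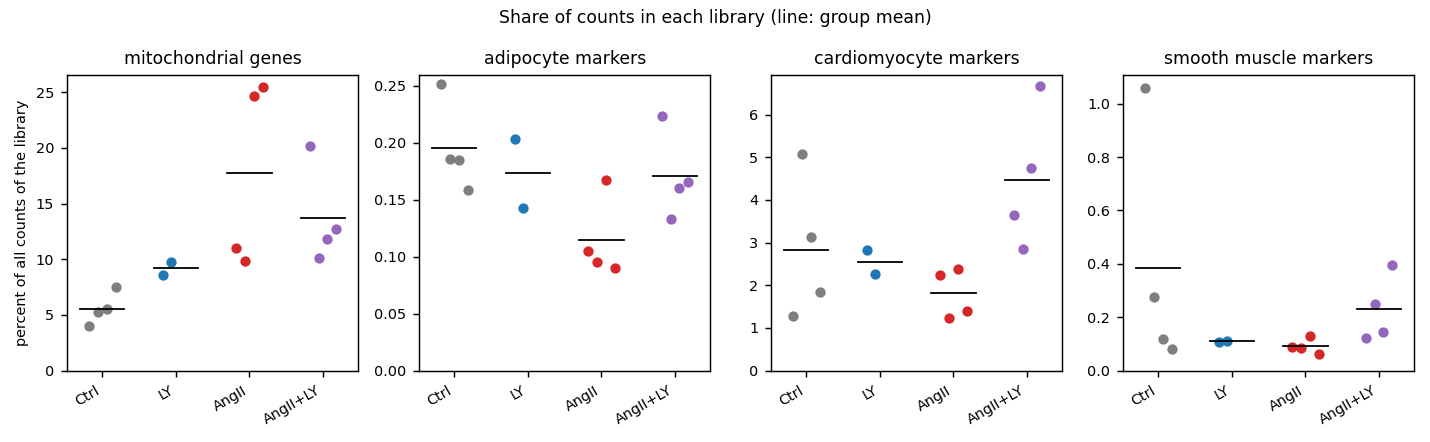
Percent of each library's counts on mitochondrial genes and on the markers of 3 other tissues, by group, with the group mean as a line. Mitochondrial shares of the 8 infused valves, 9.83% and above, all lie above those of the 6 non-infused valves, while cardiomyocyte shares overlap, and Ctrl 1 stands apart in smooth muscle markers at 1.06%.

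Several noncoding RNAs were higher in infused valves too. Rn18s-rs5, an 18S ribosomal RNA gene, stood at 1601 to 3464 CPM in infused and 807 to 1285 CPM in the others (log2 fold change 1.10 ± 0.21, edgeR adjusted p = 0.0392). Lars2, the mitochondrial leucyl-tRNA synthetase gene, stood at 4142, 7295 and 9285 CPM against 1718, 2258 and 2945, without overlap (log2 fold change 1.57 ± 0.28, edgeR adjusted p = 0.0303). The noncoding gene Gm15564, named after its value was seen, was called with it (log2 fold change 1.89), and a stretch of 55 bases is identical in transcripts of the pair. Gm15564 stood at 417 to 1333 CPM in infused and 165 to 273 CPM in non-infused valves. Reads that lie wholly in that stretch cannot be assigned to either gene. Their number was not counted, and their part in the values of Lars2 was not tested. The nuclear noncoding RNAs Neat1, of paraspeckles, and Kcnq1ot1, an imprinted antisense RNA, did not overlap between infused and non-infused valves. Their log2 fold changes were 0.83 ± 0.17 and 1.04 ± 0.26 (edgeR adjusted p = 0.0543 and 0.0717). Of 10 such RNAs tested, 5 were higher and none lower at an unadjusted p under 0.05. Across 19043 genes with known GC content, the log2 fold change fell with GC percent (Spearman rho -0.438, a description across genes), and the part of ribosomal, mitochondrial and nuclear RNA in the calls was not tested.

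Of 19 circadian clock genes none was called, 8 had a positive and 11 a negative log2 fold change, and the median was -0.31. Per2, a repressor of the clock, stood at 30.8, 35 and 47.3 CPM in infused and 52.5, 56.8 and 70.7 CPM in non-infused valves, without overlap. Its log2 fold change of -0.66 ± 0.14 missed the threshold (edgeR adjusted p = 0.0565). Cry2 (-0.55 ± 0.15), Per1 (-0.72 ± 0.20) and Cry1 (-0.77 ± 0.28) were not called (edgeR adjusted p = 0.0852, 0.0858 and 0.142). At an unadjusted p under 0.05, 5 members were lower and 1, Clock, higher. No label gives the hour of collection.

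The effect was compared between valves with and without the antagonist. All 24 named called genes had the same sign in the 2 strata, which share no mouse, but the genes were chosen on the pooled effect. Over all genes the sign was the same in 53.4%, and the Spearman rho of the strata was 0.106 across genes. In the interaction test edgeR called 0 genes, and Aldh1a1 had the smallest adjusted p, 0.139. An unadjusted p under 0.05 was reached by 2952 genes (15.4%). DESeq2 called 203.

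**Figure D4:**
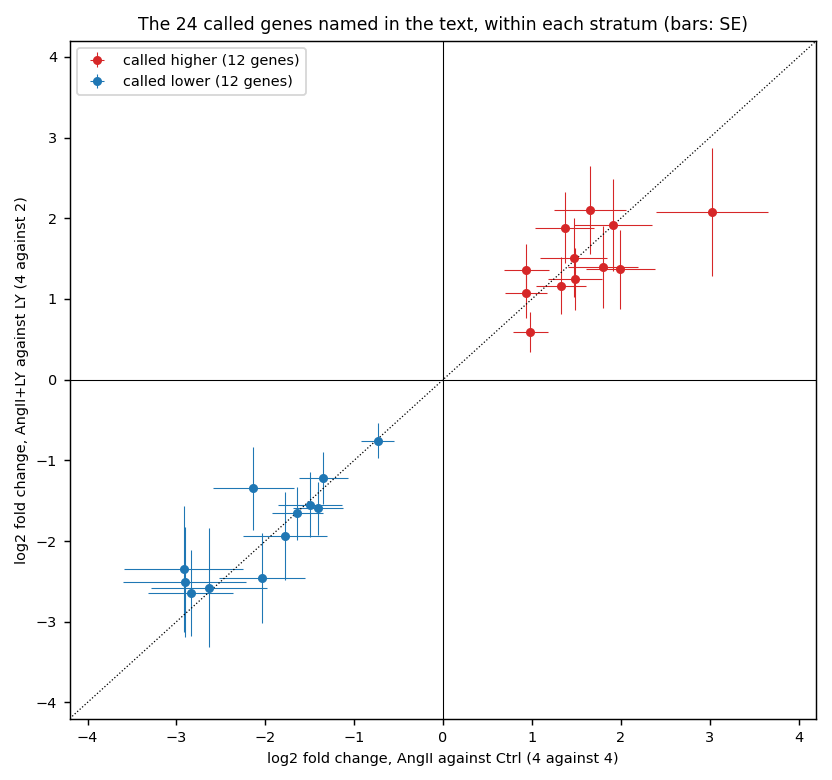
Log2 fold change of AngII against Ctrl on the horizontal axis and of AngII+LY against LY on the vertical axis for the 24 called genes named in the text, with SE bars and a dotted line of equality. Every gene lies in the quadrant of its pooled direction, for example Ucp1 at -2.84 and -2.65 and Slc12a2 at 3.03 and 2.08.

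For the 6 named genes with the smallest interaction p, which were chosen by that p, the values are given by group as a description. Aldh1a1, a retinaldehyde dehydrogenase, stood at 243 to 426 CPM in Ctrl valves and at 376 and 584 in LY valves. AngII valves held 432 to 562 CPM, whereas AngII+LY valves held 97.5 to 191. The fitted difference was 0.57 without and -1.81 with the antagonist (interaction edgeR adjusted p = 0.139). Il33, a cytokine of stromal and endothelial cells, stood at 42.2 to 81.2 CPM in Ctrl valves and at 84.1 and 127 in LY valves. AngII valves held 62.2 to 146 CPM, whereas AngII+LY valves held 20.5 to 33.9 (0.59 and -1.85, interaction edgeR adjusted p = 0.237). Slc18a2, the vesicular monoamine transporter, had 1.08 and -1.60 (interaction edgeR adjusted p = 0.16), and Prokr2, a prokineticin receptor, 1.68 and -2.46 (interaction edgeR adjusted p = 0.237). Platr25 (1.35 and -0.998) and Aph1b (0.56 and -1.09), a gamma-secretase subunit gene, completed the list (interaction edgeR adjusted p = 0.237 for each). The pooled effect was not called for any of the 6 genes.

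**Figure D5:**
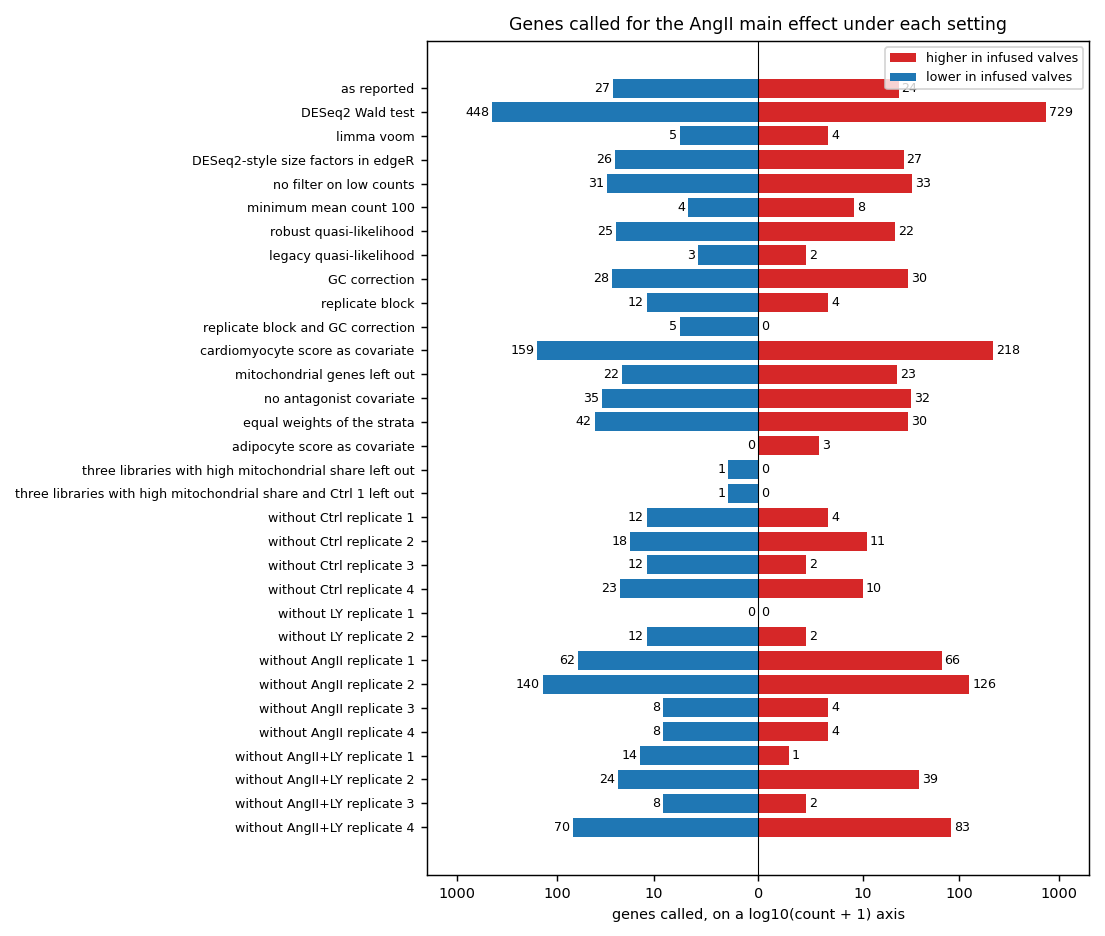
Number of genes called higher (right) and lower (left) for the AngII main effect under each setting, on a log10(count + 1) axis. The reported fit has 24 and 27, DESeq2 has 729 and 448, and the fit without LY 1 has 0 and 0.

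Libraries held 20990655 to 73128220 counts, with AngII 4 the smallest at 20990655. Ctrl 1 carried 1.06% of its counts on smooth muscle markers, where the other 13 libraries carried 0.0624% to 0.397%, and without it 16 genes were called. As markers of leaflet cells, 20 valve interstitial and fibroblast genes were listed, all of which were tested. They took 1.03% to 2.75% of counts in infused and 1.81% to 3.17% in non-infused valves. At an unadjusted p under 0.05, 7 were lower and 1 higher, none of them called. Their median log2 fold change was -0.10 in the stratum without and -0.85 in the stratum with the antagonist. Cardiomyocyte markers took a larger share than these in some libraries and a smaller one in others. In AngII+LY 4 the shares were 6.67% and 1.03%, and in Ctrl 1 they were 1.27% and 3.17%. The part of attached heart muscle in the libraries was not tested.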

How the data were processed

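RNA from mouse aortic valve leaflets was sequenced in 14 libraries. Per the labels, the authors checked reads with FastQC 0.12.1, trimmed them and aligned them to GRCm39 with HISAT2, and the submitters' processing notes name featureCounts and DESeq2. The deposited table holds whole-number read counts per Ensembl gene with no normalization, although it is named as normalized counts. Counting options, among them strand, are not given in the sources used here. Genes were matched to GENCODE vM39, and 618 without a match held 0.0361% of counts.

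Genes averaging 10 counts or more were fitted with edgeR 4.0.16 (R 4.3.3), TMM scaling and a quasi-likelihood test on antagonist and AngII, and p-values were adjusted by Benjamini-Hochberg over all 19145 genes. SE is the log2 fold change over the root of its F statistic. On simulated counts of these libraries the default form of the test recovered the changes put in, but passed more unchanged genes than its adjusted threshold allows, while the legacy form did not, so the 5 legacy calls stand beside the 51 in the report. Shares of counts were compared by an exact 2-sided permutation test within the antagonist strata, with 1050 arrangements and a smallest p of 0.000952.

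Among genes that averaged 100 counts or more and had no predicted name, those named were the 12 with the smallest p in each direction, the 5 called ones with the largest change in each direction, and the 6 with the smallest interaction p. Up to 4 members of each list described and 9 fixed genes were named at any count tested. The members and lists were chosen with earlier results of these data known. Libraries held 20990655 to 73128220 counts, so that 3 counts correspond to 0.041 to 0.143 CPM, counts per 1000000. Such floors hold counting error alone, as PCR copies of a molecule were not marked. No label names the mouse of a library, so p-values measure the spread between libraries.

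Alternatives were DESeq2 1.42.0, limma 3.58.1 with voom, other scaling, filters and quasi-likelihood options, a loess correction for GC content (span 0.3), a replicate block, marker score covariates, and leaving out libraries. The adipocyte score and the joint removal of 3 or 4 libraries were added after seeing the data. With its samples assigned by title, LY has 2 libraries here.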

Additional observations from a re-analysis of the deposited data

Results flagged for a closer look

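In each group of 4, the highest or lowest library was set against the other 3 for 42 measures, 126 groups in all, of which chance alone marks about 1 in 20, and 9 stood apart by Dixon's test at its 95% critical value. Single genes made up most of the 42 measures and all 9 of those that stood apart. AngII 4 was the highest AngII valve for Slc12a2 (469 CPM, the other 3 at 45.3 to 100) and for Slc6a4 (53 CPM, the others at 3.08 to 6.59), and the lowest for Inmt (22.7 CPM, the others at 39 to 42.3). AngII+LY 4 was the lowest of its group for Inhba (90.6 CPM, the others at 345 to 382) and the highest for Inmt (53.7 CPM, the others at 23 to 26.5) and Fcho1 (1.48 CPM, the others at 0.274 to 0.418). AngII+LY 1 was the highest for Nnat (4.51 CPM, the others at 0.706 to 0.904). Ctrl 1 was the highest Ctrl valve for Cbs (11.2 CPM, the others at 3.07 to 4.05) and Slc6a4 (5.89 CPM, the others at 1.21 to 2.01). No gene passed the interaction test of edgeR between valves with and without the antagonist, where 2952 had an unadjusted p under 0.05. The cause of these values was not tested.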

How the results depend on the processing

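The count of called genes, 51, was 1177 with DESeq2, 9 with limma voom, 12 at a minimum mean count of 100, 5 with the legacy form, 377 with a cardiomyocyte score and 3 with an adipocyte score as covariate, and 1 without the 3 libraries of high mitochondrial share, also when Ctrl 1 was left out with them. Other scaling, no filter, the robust form, the GC correction, leaving out mitochondrial genes, no antagonist covariate and equal weights of the strata gave 45 to 72. Similar counts did not mean the same genes. The GC correction called 58, of which 38 were among the 51, and the DESeq2 calls held 40 of the 51. Cyp51, Inhba, Xirp2, Adig, Cidec and Nnat were not called after the GC correction (edgeR adjusted p = 0.0506 to 0.0711). Without 1 library the count of calls ranged from 0 (LY 1) to 266 (AngII 2), and it moved by over 1.5 times for each library left out except AngII+LY 2 (63). The interaction called 0 genes under all settings run except DESeq2, with 203. The cause of these differences was not tested.

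With a replicate block 16 genes were called, all among the 51, and with the replicate block and GC correction 5. Replicate numbers did not pair the libraries: of 18 same-number pairs, 5 correlated above 0.1, over a range of -0.304 to 0.261.

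The 24 called genes named kept their direction in 14 fits without 1 library and in 17 other fits. Counted over genes and fits these are 744 values, of which 399 were called. Values that turned sign belong to uncalled genes. Htr2b was 0.36 with the adipocyte score, 0.051 without the 3 libraries, and -0.77 to 0.55 without 1 library. Slc6a4 was -0.18 with the adipocyte score. Postn was 0.23 with the cardiomyocyte score and -0.41 to 0.23 without 1 library. Myh6 was 0.065 with no antagonist covariate, 0.74 with the adipocyte score, and -0.76 to 0.37 without 1 library. The cardiomyocyte share difference was -0.000362 on the log2 scale and -0.253 to 0.698 percentage points without 1 library. The adipocyte share difference, -0.0671 to -0.036, passed an exact permutation p of 0.05 without LY 2, AngII 3 or AngII+LY 1, and the mitochondrial one was 7.38 to 10.3.

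With 2 LY libraries, the stratum with the antagonist has the fewest samples. At the smallest library, values under 0.143 CPM are at or under 3 counts.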

Other observations

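Other gene lists are given by their counts of members at an unadjusted p under 0.05, with no member called. Of 39 WNT genes 3 were higher and 10 lower, with a median log2 fold change of -0.48. Of 22 complement genes 1 was higher and 8 lower (median -0.53). Of 26 elastic fiber and crosslinking genes 2 were higher and 9 lower (median -0.20). Of 25 genes for TGF-beta ligands, receptors and SMADs, 1 was higher and 6 lower (median -0.15). Of 37 nuclear genes of respiratory complex I, 11 were higher and none lower, and their median was -0.28 without and 0.73 with the antagonist. Of 15 smooth muscle and pericyte markers none was higher and 1 lower, and their medians were -1.84 and 1.08 in the strata without and with the antagonist, where Ctrl 1 holds the highest smooth muscle share.

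The remaining called genes fell under the limit on mean count, have predicted names, or ranked after the 12 named per direction, and were chosen for mention after their values were seen. Among those lower were the adipocyte glycerol-3-phosphate dehydrogenase gene Gpd1 (log2 fold change -1.68), the preadipocyte factor gene Dlk1 (-4.45, 1.42 CPM at the non-infused median) and Trf, which encodes transferrin (-1.20). Among those higher was Mrpl1, a mitochondrial ribosomal protein gene (0.97).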
